A study of Drosophila melanogaster with 2 samples.

Results

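Far intronic peaks are peaks of CG4707 ChIP-seq signal that lie inside a gene and in no annotated exon. They also lie more than 2000 bp from the transcription start site (TSS) of any annotated transcript. They were taken from the 3470 peaks that the authors kept after an irreproducible discovery rate step, and placed by their summits, the positions of highest signal. The rule was met by 775 of the 3470 peaks (22.3%, exact 95% interval 21.0 to 23.8). The other 2695 peaks were 1569 at promoters (summit within 500 bp of a TSS), 546 near intronic peaks (over 500 and up to 2000 bp from a TSS), 466 intergenic peaks and 114 in exons. The series holds a single group of 2 ChIP-seq libraries, the biological replicates numbered 2 and 3. They were made from whole Drosophila melanogaster embryos, male and female pooled and aged 0 to 14 h, of a transgenic strain that carries CG4707 with GFP at its C terminus. There was no second genotype, treatment or stage, and the sources used here do not say which promoter drives the fusion. The labels' free text names both libraries as input, while their assay and antibody fields describe immunoprecipitated chromatin with a control held elsewhere. They were taken to be the immunoprecipitated libraries. Signals come from all cell types of the embryo together, so binding in fewer cells and weaker binding per cell cannot be told apart.

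Chromatin immunoprecipitation followed by sequencing recovers the DNA that a tagged protein touches in fixed chromatin. Long introns of developmental genes are known to hold many enhancers, the elements from which transcription factors control a promoter at a distance. Binding inside an intron and far from any TSS is therefore the usual place to look for sites of that kind, though position alone does not show that a site acts as an enhancer or on which gene. The labels treat CG4707 as a transcription factor.

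Among 8-mers on either strand within 100 bp of the summit, ACAGTGGG had the lowest p in a comparison of CG4707 peaks outside this class with weaker regions. It was chosen on the 2695 peaks that do not meet the rule, so the far intronic peaks took no part in the choice. The following windows, from the Release 6 genome that dm6 names, come from strong far intronic peaks that hold it, and are shown because they let the copies and their flanks be compared. Each has 88 bases, is written in the direction of the 8-mer and has every copy of the 8-mer in capitals.
B4 (chr2L:13513520-13513607, plus strand, signal 1258): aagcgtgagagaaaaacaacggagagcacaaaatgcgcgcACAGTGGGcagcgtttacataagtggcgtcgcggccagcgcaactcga
CG32264 (chr3L:3785114-3785201, plus strand, signal 1217): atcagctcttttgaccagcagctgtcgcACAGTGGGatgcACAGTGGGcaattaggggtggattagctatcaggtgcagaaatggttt
Ubr3 (chrX:7938433-7938520, minus strand, signal 953): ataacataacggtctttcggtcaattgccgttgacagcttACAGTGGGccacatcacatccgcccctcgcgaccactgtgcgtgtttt
simj (chr3L:10683156-10683243, minus strand, signal 894): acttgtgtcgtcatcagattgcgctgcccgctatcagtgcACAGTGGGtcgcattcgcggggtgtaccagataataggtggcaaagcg
CHES-1-like (chrX:7700542-7700629, plus strand, signal 528): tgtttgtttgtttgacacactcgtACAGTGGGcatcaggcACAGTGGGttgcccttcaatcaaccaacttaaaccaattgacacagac
Grip (chrX:5970813-5970900, plus strand, signal 485): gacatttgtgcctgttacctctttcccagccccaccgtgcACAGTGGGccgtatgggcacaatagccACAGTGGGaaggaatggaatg
Fur1 (chr3R:25446125-25446212, plus strand, signal 458): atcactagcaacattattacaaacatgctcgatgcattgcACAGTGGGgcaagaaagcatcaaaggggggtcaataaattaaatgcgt
hth (chr3R:10588744-10588831, minus strand, signal 455): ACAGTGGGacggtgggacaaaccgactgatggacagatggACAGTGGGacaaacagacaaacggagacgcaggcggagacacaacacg

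In the windows of CG32264, CHES-1-like, Grip and hth a further copy stands beside the first. Some bases in front of the 8-mer and after it also recurred. Over the 103 copies (on either strand) within 100 bp of a far intronic summit, the second base before the 8-mer was G at 78 (75.7%) and the base directly before it was C at 68 (66%). At 818 copies in other far intronic sequence, over 500 bp from the summit of any called region, the second base before was G at 30.3% and the base before was C at 28.7%. The base directly after it was C at 45.6% of the copies near summits and at 30.7% of the other copies. Farther after the 8-mer, the second base was C at 47.6% near summits and 24.6% of the other copies. The fifth was A at 53.4% near summits and 30.2% of the others, and the sixth T at 44.7% and 24.6%. At the third base the shares of A were close, 38.8% near summits and 36.1% of the others. These shares are descriptions and were not tested.

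Most far intronic peaks, including the strongest of all, did not hold the 8-mer. The following windows of 121 bases centred on the summit, on the plus strand, show 4 strong peaks without it. Capitals mark the 6-mer ACAGTG on either strand, the shorter form of the same letters.
tara (chr3R:16235738-16235858, signal 3971): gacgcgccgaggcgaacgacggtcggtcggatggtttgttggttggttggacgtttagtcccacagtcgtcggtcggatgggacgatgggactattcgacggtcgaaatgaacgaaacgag
Raf (chrX:2297667-2297787, signal 889): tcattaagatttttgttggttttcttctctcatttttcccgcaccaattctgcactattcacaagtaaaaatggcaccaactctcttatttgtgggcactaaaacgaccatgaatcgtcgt
Antp and CG46458 (chr3R:6912364-6912484, signal 862): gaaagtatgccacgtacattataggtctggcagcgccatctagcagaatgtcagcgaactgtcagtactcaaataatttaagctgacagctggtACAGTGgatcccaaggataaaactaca
skd (chr3L:21009798-21009918, signal 846): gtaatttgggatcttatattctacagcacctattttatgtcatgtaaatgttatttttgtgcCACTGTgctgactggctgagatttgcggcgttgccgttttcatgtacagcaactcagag

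A second sequence, the AT-rich 7-mer GTAAATA, was more frequent in far intronic peaks than in weaker far intronic regions, as reported with its counts after those of the 8-mer. These windows of 87 bases show it in capitals in 3 peaks of high signal that hold it and lack the 8-mer, written in its direction.
S (chr2L:1072384-1072470, plus strand, signal 651): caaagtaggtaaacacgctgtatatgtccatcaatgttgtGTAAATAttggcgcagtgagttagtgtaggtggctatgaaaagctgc
gukh (chr3R:18998092-18998178, minus strand, signal 596): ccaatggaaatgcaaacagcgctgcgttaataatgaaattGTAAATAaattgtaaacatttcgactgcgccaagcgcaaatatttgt
for (chr2L:3628995-3629081, minus strand, signal 497): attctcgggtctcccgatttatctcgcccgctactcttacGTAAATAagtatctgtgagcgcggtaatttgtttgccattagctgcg

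The first comparison asks how strongly far intronic sequence was bound relative to other positions. Far intronic regions were called as peaks less often than other regions and were rarer among the strongest peaks. The authors' pooled list holds 30000 regions, of which 8877 were far intronic. Of these, 866 (9.76%) overlapped a peak by 1 bp or more, against 3059 of 21123 other regions (14.5%, odds ratio 0.638, p = 8.51e-30 in Fisher's two-sided exact test). Over all 30000 regions the share was 13.1%, and the 3925 regions it counts exceed the 3470 peaks because neighbouring regions can touch the same peak. From the peaks of replicate 2 alone, taken as its 3470 regions of highest signal, the shares were 9.89% of far intronic regions and 15.1% of other regions. From those of replicate 3 alone they were 10.4% of far intronic and 14.2% of other regions. Regions are the units of this and all later tests. They come from the same 2 libraries, and regions in the same intron are not independent, so the p-values may be too small.

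Peak signal is the authors' caller's own value, whose scale the sources used here do not describe, and it serves only to rank peaks within a list. It ran from 118 to 3971 in far intronic peaks, with a median of 176 (quartiles 142 and 254), and from 118 to 4736 in the other peaks, with a median of 185 (quartiles 142 and 295). All peaks were split by signal into 4 groups of equal size. The highest group held 154 of 775 far intronic peaks (19.9%) and 713 of 2695 others (26.5%, odds ratio 0.689, p = 0.000163 in Fisher's two-sided exact test). The difference lay at the top of the list, since the medians and lower quartiles were close. It was not particular to far intronic peaks. Their upper quartile of 254 was close to the 260 of intergenic and 255 of exonic peaks. Near intronic and promoter peaks had higher ones, 307 and 311. Far intronic peaks made up 5 of the 100 highest peaks and 70 of the 500 highest, while they made up 22.3% of all.

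**Figure D1:**
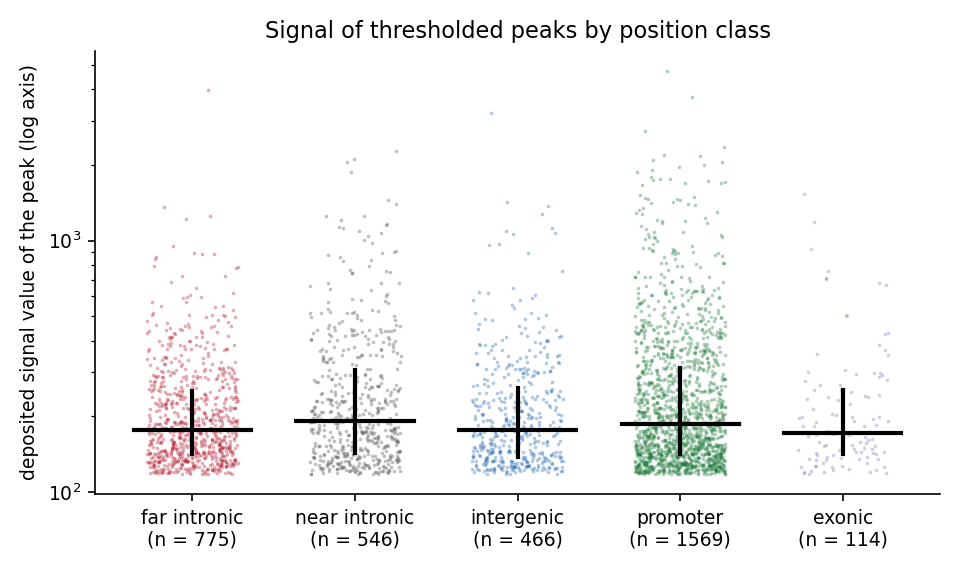
Signal of each of the 3470 thresholded peaks (vertical log axis, the authors' caller's own value) by position class. Points are peaks, horizontal bars are medians and vertical bars span the quartiles; the far intronic median is 176, against 192 for near intronic, 177 for intergenic and 186 for promoter peaks, and few far intronic points lie above 1000.

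The strongest far intronic peak lay in the first intron of tara (chr3R:16235466-16236133), which encodes a nuclear protein first described as a trithorax group member. Its summit stood 7018 bp from the nearest TSS. It ranked 2 of all 3470 peaks with a signal of 3971, and ranked 3 in replicate 2 and 2 in replicate 3. Next came sbb, the gene of the co-repressor Brakeless, with a signal of 1356 and ranks of 54 in replicate 2 and 34 in replicate 3. The peak in B4 (chr2L:13513365-13513801) had a signal of 1258 and ranks of 51 and 54 in replicates 2 and 3, and that in CG32264 (chr3L:3784988-3785445) a signal of 1217 and ranks of 76 and 44. Both replicates placed each of these 4 peaks within their first 76 regions. A peak with a signal of 953 lay in Ubr3, which encodes a ubiquitin ligase, and one of 894 in simj, which encodes a subunit of the NuRD chromatin complex. Their ranks were 119 and 82, and 97 and 106, in replicates 2 and 3.

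The rest of the 20 highest far intronic peaks, with signals from 889 down to 600, lay in the following genes. Raf (889) encodes the kinase below Ras, mam (883) the co-activator of Notch, Antp (862, in sequence shared with CG46458) a Hox protein, and skd (846) a Mediator subunit. Gug (790) encodes the co-repressor Atrophin, and Lrch (789) and CG12769 (779) followed. The nuclear receptor genes Hr4 (725) and Hr3 (721, in sequence shared with CG12912 and CG46321) came after them. Then came trx (683), which encodes a histone methyltransferase, S (651), whose product Star moves the EGFR ligand Spitz to where it is cleaved, and ush (619), which encodes a partner of GATA factors. JIL-1 (610) and Tlk (600) encode chromatin kinases. All 20 ranked within the first 200 in replicate 2 and within the first 307 in replicate 3. The 8-mer stood within 100 bp of 4 of the 20 summits, in B4, CG32264, Ubr3 and simj, and 15 of the 20 lay in a first intron.

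The second comparison asks whether both replicates gave these peaks. Among peaks already kept by the irreproducible discovery rate step, they did so about as often as for other peaks. Of the 775 far intronic peaks, 593 (76.5%, interval 73.4 to 79.5) overlapped the 3470 highest regions of both replicates, against 2019 of 2695 other peaks (74.9%, interval 73.2 to 76.5, odds ratio 1.09, p = 0.37 in Fisher's two-sided exact test). From the highest of the 4 signal groups to the lowest, the share was 99.4%, 99%, 80.4% and 28.6% in far intronic peaks, and 99.6%, 97.7%, 76% and 25.8% in other peaks. In the lowest signal group, most peaks of either kind were thus not among the top regions of both libraries at once. The pooled list holds the reads of both replicates, so these shares are not independent of the signal groups. Far intronic and other peaks had also passed the same irreproducible discovery rate step, which selects for reproducible peaks. The test therefore cannot show whether far intronic binding was as reproducible as other binding before that selection.

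The replicates did not contribute equally. Among far intronic peaks 655 (84.5%) stood in the top of replicate 2 and 707 (91.2%) in that of replicate 3, while 6 stood in neither. Among other peaks the share was 86.9% in each. Of the 753 far intronic peaks with a summit within 100 bp in each replicate's list, 424 (56.3%) ranked higher in replicate 3 than in replicate 2, against 49.1% of such other peaks. The Spearman correlation of the replicate signals was 0.65 across these 753 peaks and 0.73 across the 2583 others, as a description over peaks that share their libraries. Far intronic peaks made up 726 of the 3470 highest regions in replicate 2 (20.9%) and 808 in replicate 3 (23.3%). The depth of either library is unknown.

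**Figure D2:**
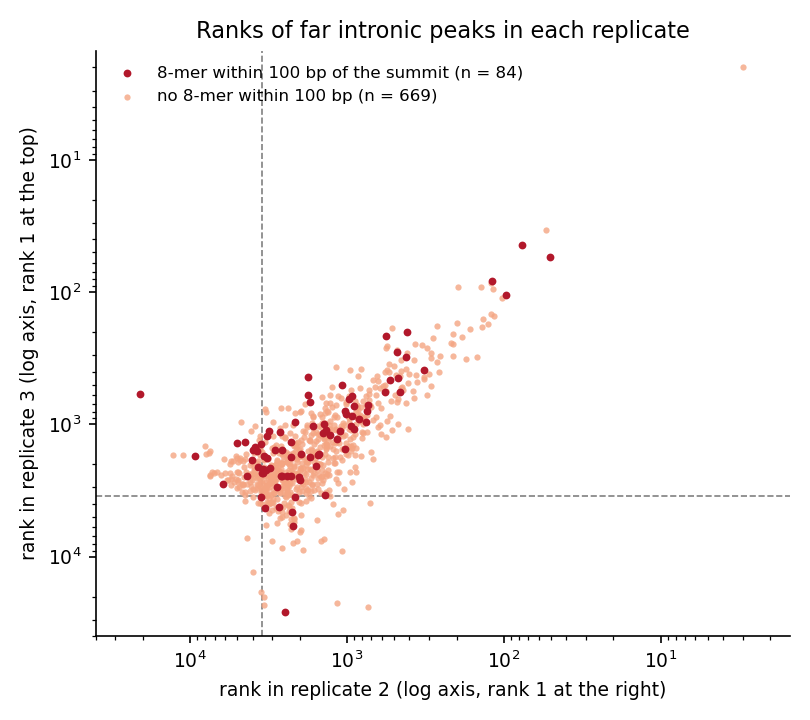
Rank of each far intronic peak in replicate 2 (horizontal) and replicate 3 (vertical), on log axes with rank 1 at the top right, for the 753 peaks with a summit within 100 bp in both lists. Dark points hold the 8-mer (84), pale points do not (669), and dashed lines mark rank 3470; the tara peak stands alone at ranks 3 and 2, and both kinds of point spread out near the lines.

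The third comparison asks which sequences lay at the summits. The 8-mer ACAGTGGG, shown in the windows of B4 to hth, was about as frequent in far intronic peaks as in other peak classes and far more frequent than in weaker far intronic regions. It occurred within 100 bp of 87 of 775 far intronic summits (11.2%, interval 9.09 to 13.7), against 162 of 8011 sub-threshold far intronic regions (2.02%, interval 1.73 to 2.35), which are pooled regions that overlap no peak. The odds ratio was 6.13, with p = 1.54e-31 in Fisher's two-sided exact test. Taken from replicate 2 alone it was in 9.09% of far intronic peaks and 1.98% of sub-threshold regions, and from replicate 3 alone in 11.9% of far intronic peaks and 1.95% of sub-threshold regions. Regions of ranks 3471 to 6000, just below the threshold, held the 8-mer in 21 of 557 cases (3.77%), which put the odds ratio at 3.23, with p = 4.13e-07 in Fisher's two-sided exact test. The far intronic peaks had a median GC content of 37.8%, against 41.3% in sub-threshold far intronic regions. Against regions matched on GC content, a setting added after the data were seen, the shares were 11.2% of far intronic peaks and 1.55% of matched regions (odds ratio 8.04, p = 4.94e-16 in Fisher's two-sided exact test).

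Against other classes of peak no difference passed the test. The 8-mer was chosen on those other peaks, so their shares may be too high and the comparison favours them. It therefore cannot show that the 8-mer was equally frequent in all classes. Near intronic peaks held the 8-mer in 62 of 546 cases (11.4%, interval 8.82 to 14.3) and intergenic peaks in 49 of 466 (10.5%, interval 7.88 to 13.7), and Fisher's two-sided exact test gave 1 as the adjusted p of each. Promoter peaks held it in 131 of 1569 cases (8.35%, interval 7.03 to 9.83, odds ratio 1.39, p = 0.0282, adjusted p = 0.0846 in Fisher's two-sided exact test, adjusted over these 3 classes by the Benjamini-Hochberg method). With a distance of 1000 bp in the rule, the difference from promoter peaks passed (odds ratio 1.41, adjusted p = 0.032 by Fisher's exact test).

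Far intronic sites gathered at the summits. There were 4.52 sites per 100 far intronic peaks in the 50 bp on each side of the summit, against 0.258 in the bin from 300 to 350 bp to its right and 1.03 in the matching bin to its left. In sub-threshold far intronic regions the 2 central bins held 0.699 and 0.674 sites per 100 regions. In all, 152 sites lay within 300 bp of a far intronic summit, 71 of them within 50 bp and 103 within 100 bp, with a median distance of 57.5 bp. They belonged to 130 peaks, of which 21 had at least 2 sites and none more than 3. Among the 146 sites in a single host gene, 71 (48.6%) lay on the strand of that gene and the rest on the other strand.

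**Figure D3:**
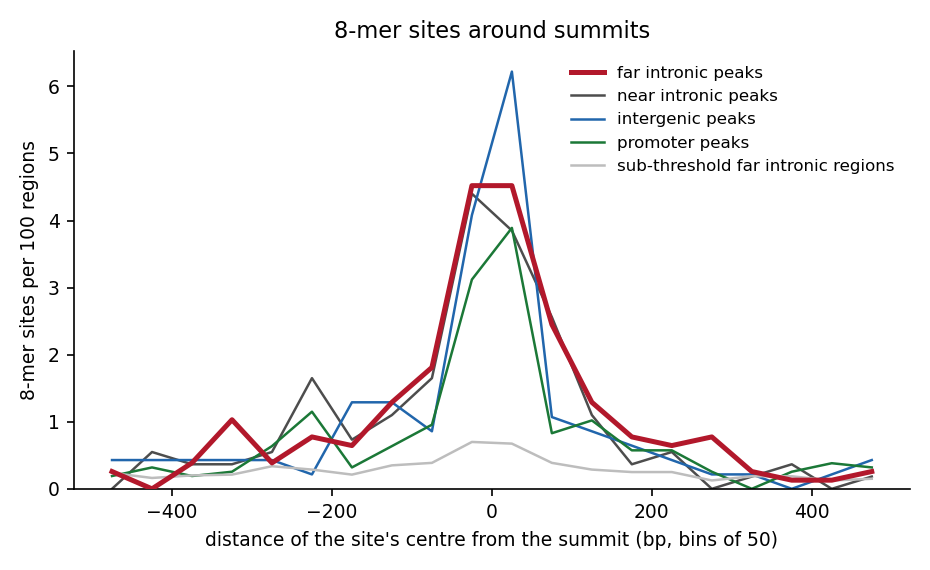
Sites of the 8-mer per 100 regions (vertical) by distance of the site from the summit in bins of 50 bp (horizontal, plus strand coordinates). The far intronic line reaches 4.52 on each side of the summit, against 3.12 to 6.22 in the other peak classes, and the sub-threshold far intronic line reaches 0.699.

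Most copies of the 8-mer in far intronic sequence lay away from the summits. The intronic sequence that meets the rule, 41.4 Mb in all, held 1357 copies of the 8-mer (32.8 per Mb). Of these, 103 (7.59%, interval 6.24 to 9.13) lay within 100 bp of a far intronic peak's summit, and 279 (20.6%) within 100 bp of the summit of any pooled region. The share of all such sequence that lies this near a summit was not computed. These 2 shares therefore do not show whether copies were near summits more or less often than other sequence.

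The 8-mer was more frequent in stronger peaks. From the highest signal group to the lowest it occurred in 16.2%, 11.1%, 11.2% and 7.41% of far intronic peaks, and in 18.1%, 8.03%, 6.53% and 4.71% of other peaks. The intervals of far intronic and other peaks overlap in each group, and the differences within groups were not tested. Other peaks had been used to choose the 8-mer, and their shares may be too high for that reason.

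**Figure D4:**
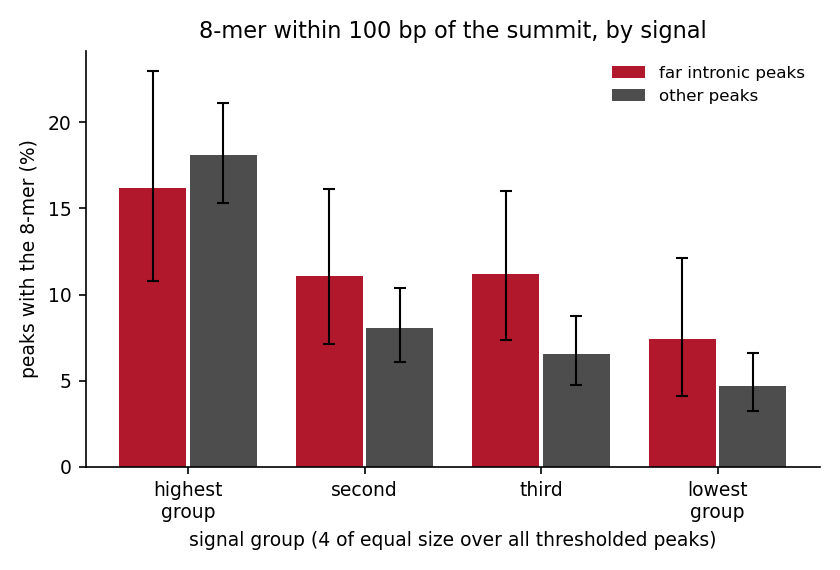
Share of peaks with the 8-mer within 100 bp of the summit (vertical, %) by signal group (4 groups of equal size over all peaks, horizontal, highest at the left), for far intronic peaks (red, left bar) and other peaks (grey). Bars start at 0 and error bars are exact 95% intervals; the far intronic share is 16.2% in the highest group and 7.41% in the lowest.

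The 7-mer GTAAATA, shown in S, gukh and for, was found by a search made after the data were seen. It was the best 7-mer without the letters of the 8-mer in the 427 far intronic peaks of 2L, 2R and X, set against GC-matched sub-threshold far intronic regions of these arms. On 3L and 3R, which the search did not use, it occurred in 59 of 348 far intronic peaks (17%, interval 13.2 to 21.3) and in 26 of 348 GC-matched sub-threshold far intronic regions (7.47%, interval 4.94 to 10.8). The odds ratio was 2.53 (two-sided Fisher's exact test, p = 0.000182, adjusted p = 0.000455 over 5 comparisons). From replicate 2 alone it stood in 18.4% of far intronic peaks and 6.65% of matched regions, and from replicate 3 alone in 16.6% of far intronic peaks and 9.3% of matched regions. In the higher-signal 1735 peaks the difference did not pass (odds ratio 1.42, p = 0.343 in Fisher's two-sided exact test, with 27 of 158 far intronic peaks against 20 GC-matched regions). The share in these peaks was 17.1%, close to the 17% before, while that in the matched regions was 12.7%, above the 7.47% before. The matched regions are a random draw in each setting.

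On the same arms GTAAATA was more frequent in far intronic peaks than in intergenic ones (17% against 9.72%, two-sided Fisher's exact test, adjusted p = 0.0149) and promoter ones (9.58%, adjusted p = 0.00134). Against near intronic peaks, with 13.8%, the difference did not pass (odds ratio 1.27, adjusted p = 0.348 by Fisher's exact test). Unlike the 8-mer, it showed no steady change with signal, at 16.2%, 15.4%, 17% and 13.8% of far intronic peaks from the highest signal group to the lowest. The 8-mer and the 7-mer occurred together in 8 far intronic peaks, the 8-mer alone in 79, the 7-mer alone in 113 and neither in 575. Thus most far intronic peaks held neither.

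Of 15 binding motifs of known factors, 2 differed between far intronic peaks and sub-threshold far intronic regions, and neither difference held under all settings. GCCAT, the core bound by the Polycomb group protein Pho, occurred in 209 of 775 far intronic peaks (27%) and in 2847 of 8011 sub-threshold regions (35.5%, odds ratio 0.67, adjusted p = 2.06e-05 in Fisher's two-sided exact test). The E-box CATATG occurred in 78 far intronic peaks (10.1%) and 577 sub-threshold regions (7.2%, odds ratio 1.44, adjusted p = 0.0385 by Fisher's exact test). Without replicate 2, CATATG did not pass (odds ratio 1.4, adjusted p = 0.0668 by Fisher's exact test). Against GC-matched regions neither passed, with an odds ratio of 0.823 for GCCAT and 1.31 for CATATG (adjusted p = 0.432 and 0.437 by Fisher's exact test). Against regions just below the threshold they were 1.02 for GCCAT and 1.09 for CATATG, and the exact test gave 1 as the adjusted p of each. GAGAGAG of GAGA factor stood in 5.68% of far intronic peaks and 4.19% of sub-threshold regions, with an adjusted p of 0.191 in the exact test. AGATAAG of GATA factors stood in 4.77% of far intronic peaks and 3.12% of sub-threshold regions (exact test, adjusted p = 0.0962). TGGGAA of Su(H), the Notch effector, stood in 10.5% of far intronic peaks and 13.2% of sub-threshold regions (exact test, adjusted p = 0.108). CAGGTAG of Zelda, AGGNGGCGC of CTCF, GCATACTTT of Su(Hw), ACCGGTT of Grainyhead, TATCGATA of DREF, GGTCACACT of core promoters (Motif 1), CTATTTATA of Mef2 and TTCNNNGAA of STAT did not pass either. Nor did the E-box CAGCTG or CGATA of BEAF-32, which the DREF motif contains. CGATA stood in 20.4% of far intronic peaks and 20.4% of sub-threshold regions, CAGCTG in 8.39% of far intronic peaks and 8.64% of sub-threshold regions, and TTCNNNGAA in 6.32% of far intronic peaks and 5.11% of sub-threshold regions. The others stood in at most 1.29% of far intronic peaks. All were sought on both strands. Matching letters are no proof of a factor's site, and their absence in a window says nothing on the factor.

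The fourth comparison asks where in their genes far intronic peaks lay. They lay in first introns more often than weaker far intronic regions. A first intron is here the first of any transcript of the gene, the part of a fly gene known for holding regulatory elements. Of 775 far intronic peaks, 491 (63.4%, interval 59.9 to 66.8) lay in one, against 4381 of 8011 sub-threshold far intronic regions (54.7%, interval 53.6 to 55.8, odds ratio 1.43, p = 3.15e-06 in Fisher's two-sided exact test). From replicate 2 alone the shares were 62.8% of far intronic peaks and 54.2% of sub-threshold regions, and from replicate 3 alone 63.4% of far intronic peaks and 54.3% of sub-threshold regions. Against regions just below the threshold the difference did not pass (odds ratio 1.13, p = 0.303 in Fisher's two-sided exact test). Positions spaced evenly every 100 bp over all sequence that meets the rule were in first introns in 37.6% of cases. Host introns of far intronic peaks had a median length of 13.4 kb, close to the 13.7 kb of sub-threshold far intronic regions.

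Distances to the nearest TSS ran from 2002 to 47636 bp, with a median of 5177 bp (quartiles 3198 and 8837). Distances above 10000 bp were found for 157 far intronic peaks and above 20000 bp for 34, 6 of which held the 8-mer. The farthest peak lay in hth, a homeobox gene. Across the 775 peaks the Spearman correlation of signal with distance was -0.04, a description. The share of peaks in the highest signal group was 21.3% at over 1000 bp, 19.9% at over 2000 bp and 17.2% at over 5000 bp. These sets contain one another, and the change was not tested. Sub-threshold far intronic regions had a median distance of 5932 bp. The nearest TSS was that of a host gene for 540 peaks (69.7%) and of another gene for the rest. Just inside the limit, from 2000 to 2100 bp, there were 15 far intronic peaks with a median signal of 161. Just outside it, from 1900 to 2000 bp, there were 28 intronic peaks with a median of 157.

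Per Mb of sequence that meets the rule, the number of far intronic peaks was highest on 2L, with 22.3, then 19.7 on X, 18.7 on 3L, 17.6 on 3R and 17.4 on 2R. Chromosome 4 had 0 in 0.445 Mb, though it had 35 sub-threshold far intronic regions. Summits stood in repeat-masked sequence in 19.5% of far intronic peaks and in 16.6% of sub-threshold far intronic regions.

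The fifth comparison asks which genes held the peaks. The 775 peaks lay in 459 genes, 10.6% of the 4333 genes that have sequence meeting the rule. Of the peaks, 736 lay in a single gene, 36 in 2 overlapping genes and 3 in 3. There were 271 genes with a single far intronic peak, 104 with 2 and 36 with 3, and the remaining genes had 4 to 8. Many peaks shared an intron. Of 551 introns with a far intronic peak, 153 held at least 2, and these held 377 of the 775 peaks (48.6%). Another far intronic peak stood within 1000 bp of 91 peaks and within 5000 bp of 299, and the median distance to the next was 10395 bp. These counts were not made for sub-threshold regions or set against intron length. They therefore do not show whether the peaks were more clustered than other regions.

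The gene with most far intronic peaks was px, a gene known for its role in wing vein patterning, with 8. Their signals were 304, 283, 254, 197, 181, 174, 151 and 127, and 2 of them held the 8-mer. Then came 5 genes with 7 each. In sbb the signals were 1356, 414, 385, 288, 253, 171 and 144, all in first introns. Raf had 889, 469, 311, 304, 176, 172 and 151, none of them in a first intron and none with the 8-mer or the 7-mer. Eip75B, an ecdysone-induced nuclear receptor gene, had 505, 299, 282, 247, 241, 179 and 159. The 7 peaks of CG42238 had signals from 125 to 251, and 3 of them held the 8-mer. kirre, which encodes an adhesion protein of myoblast fusion, had 1 peak of 428 and 6 from 120 to 211, spread over 288 kb of sequence that meets the rule. The single high peak of tara (3971) had 4 lower neighbours in first introns of the same gene, with signals of 456, 334, 154 and 148.

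Promoter peaks were more frequent in host genes than in other genes, though most hosts had none. Of the 459 host genes, 193 (42%, interval 37.5 to 46.7) also had a peak within 500 bp of one of their TSSs. Among the 1172 genes that held a sub-threshold far intronic region but no far intronic peak, 264 had one (22.5%, interval 20.2 to 25). Longer genes offer more sequence, so the shares were also taken by length of sequence that meets the rule. The other genes are here all 3874 with such sequence and no far intronic peak, with or without a sub-threshold region. Of these 3874 genes, 15.5% had a promoter peak. They were 37.9% in hosts and 19.3% in other genes at over 1000 and up to 5000 bp, 44% in hosts and 16.9% in other genes up to 20000 bp, 45.5% in hosts and 15.6% in other genes up to 50000 bp, and 35.6% in hosts and 7.29% in other genes above 50000 bp. Hosts thus had the higher share in each of these length classes. This is a description and was not tested, and the number of TSSs per gene was not taken into account.

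Among the gene lists shown, the density of far intronic peaks was highest in trithorax and Polycomb group genes and in EGFR and FGF genes. Wnt, Hedgehog and Dpp pathway genes followed, then nuclear receptor and ecdysone response genes. The Notch list, also of signalling genes, stood near all genes at 22.9 per Mb, and ion channel genes had a low density. Over all genes that meet the rule, the density was 18.8 far intronic peaks per Mb, counting a peak once for each gene that holds it, and that of sub-threshold far intronic regions was 195. All lists were made with earlier results of these data known. Their counts are therefore descriptions, with no test. The 10.6% of all genes is no like yardstick for the share of hosts, which rose with the length of sequence that meets the rule. Hosts were 6.6% of genes at over 1000 and up to 5000 bp, 21% up to 20000 bp, 31.8% up to 50000 bp and 43.2% above that. The median length was 1.66 kb over all genes. In the lists it ran from 0.419 kb (insulator genes) to 27.5 kb (BTB genes), with 11.4 kb in homeobox and 24 kb in axon guidance genes.

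In the EGFR and FGF list, pathways that pattern many embryonic tissues, 9 of 26 genes with sequence that meets the rule were hosts. They held 29 far intronic peaks, or 78.9 per Mb, beside 449 sub-threshold regions per Mb. Their members cover several steps of the pathway. Raf (889) is its kinase, S (651) acts on the ligand, aos (551) encodes a secreted inhibitor and vn (380) a ligand. Named after their values were seen, the transcription factor genes cic (6 peaks, 118 to 356), aop (4 peaks, 131 to 335) and pnt (4 peaks, 120 to 306) held most of the rest. The 8-mer occurred in 0 of these 29 peaks, while it occurred in 11.2% of all far intronic peaks. This list was picked out after its count was seen, and several of its peaks share a gene.

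In the list of Wnt, Hedgehog and Dpp pathway genes, 15 of 43 were hosts, with 30 peaks, 52.1 per Mb. The Wnt receptor gene fz led with 4 peaks, the highest at 572, followed by the glypican gene dlp (397), the BMP ligand gene dpp (330) and the Hedgehog receptor gene ptc (305). Here sub-threshold regions were also dense, at 511 per Mb. Among nuclear receptor and ecdysone response genes 10 of 25 were hosts, with 32 peaks, 49.5 per Mb, beside 319 sub-threshold regions per Mb. Hr4 (5 peaks, highest 725), Hr3 (721), Eip75B (505) and Eip74EF (340) led. For trithorax and Polycomb group genes, which keep developmental genes on or off, 6 of 30 were hosts. Their 12 peaks gave 90.9 per Mb, but over only 0.132 Mb. They lay in tara, skd (846), trx (683) and ph-p (179), and in 2 further genes.

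The other lists stood nearer the 18.8 per Mb of all genes or below it. Homeobox genes had 22.7 per Mb, with 11 of 65 as hosts, led by Antp (862), hth (455), ct (223) and cad (215). For Notch pathway genes the density was 22.9, with 3 of 18 as hosts, mam (883), N (383) and fng (144). Genes of BTB zinc-finger proteins were hosts in 7 of 16 cases, each with 1 peak, at 15.4 per Mb, led by rib (366), bab2 (340), ken (331) and bab1 (308). Muscle genes had 14.1, with 3 of 23 as hosts, Mef2 (213), Prm (148) and nau (148).

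Axon guidance and neuronal adhesion genes were hosts in 18 of 87 cases, at 12.3 per Mb, led by kirre (428), caps (424), fra (415) and Sema1a (341). RNA-binding and splicing regulator genes had 9.05 per Mb and 9 of 33 as hosts, led by Rbfox1 (506), bru2 (345) and shep (327). Ion channel and transmitter receptor genes had 3.08 per Mb, with 4 of 58 as hosts, Ih (407), Ca-beta (236), Shal (235) and ClC-a (154), and a density of 54.6 sub-threshold regions per Mb. Of 12 insulator protein genes with sequence that meets the rule, 0 were hosts, over only 0.0535 Mb. None of the 92 cytosolic ribosomal protein genes had an intron that meets the rule. Each of the 4 lists densest in far intronic peaks also had more sub-threshold regions per Mb than the 195 of all genes. This was not particular to them. The Notch (344), homeobox (294), BTB (251) and muscle (222) lists also stood above 195, the BTB and muscle lists with fewer far intronic peaks per Mb than all genes.

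**Figure D5:**
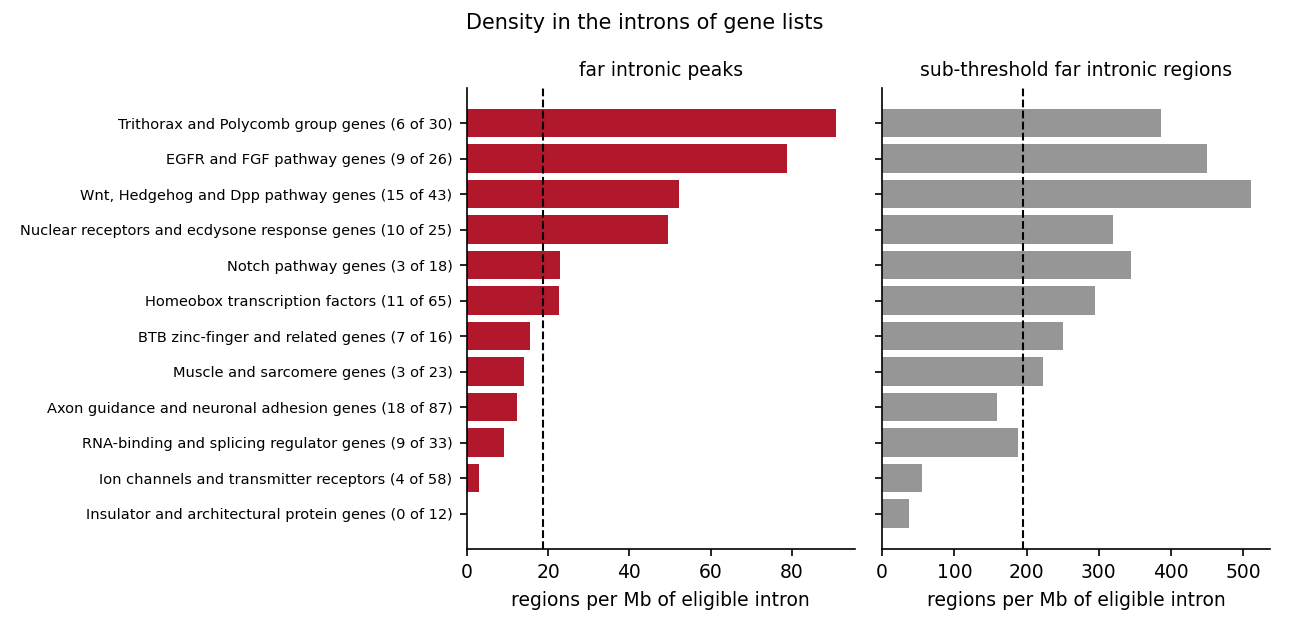
Regions per Mb of sequence that meets the rule in each gene list, for far intronic peaks (left) and sub-threshold far intronic regions (right), with hosts and genes that could be hosts in brackets. Dashed lines mark all genes at 18.8 and 195 per Mb; the far intronic density reaches 90.9 in trithorax and Polycomb group genes and 78.9 in EGFR and FGF genes, and is 3.08 in ion channel genes.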

How the data were processed

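Per the deposited file listing, the authors called regions in each replicate and in the pooled reads against a control alignment, and deposited the peaks kept by an irreproducible discovery rate step. The build is dm6 per the labels, and neither aligner nor caller is given in the sources used here. The authors' signal column holds a score of undescribed scale. The deposited column of −log10 q-values was equal for all 3470 peaks and was not used further. The authors' summit offsets were added to the region starts. Depth is unknown, and intervals cover counting error only. Per the labels, chromatin was sonicated to 200 to 800 bp and the replicates are biological; whether they came from separate collections is not stated.

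Positions of summits came from Ensembl release 115, which annotates this assembly, without its 5809 transposable elements (18164 genes), in the order promoter, exon, intron, intergenic. Sub-threshold regions are pooled regions that overlap no peak. The motif search compared 8-mers present in windows of 100 bp on each side of the summit, between the other 2695 peaks and 2695 sub-threshold regions of like class and GC content. Shares were compared with two-sided Fisher's exact tests, Benjamini-Hochberg adjustment within a family and a threshold of 0.05, and have exact Clopper-Pearson 95% intervals. Scripts were tested on simulated regions with a planted 8-mer. The peak class, the gene lists, the motifs and the settings were chosen with earlier results of these data known. Named genes are hosts of the 20 far intronic peaks of highest signal, the hosts with most peaks (ties kept) and up to 4 hosts per list, and further ones are marked. Of the listed symbols, 1 of the Notch pathway matched no gene. The results of 1 further gene list are not reported here. Alternatives were each replicate alone, the higher-signal 1735 peaks, distances of 1000 and 5000 bp, protein-coding genes only, a 50 bp window, a 6-mer, a reciprocal overlap of 50% and regions just below the threshold as background. Transposable elements as genes, GC-matched backgrounds and the 7-mer were added after the data were seen. Tests ran in scipy 1.17.1 and figures in matplotlib 3.10.9, on Python 3.11.15 with pandas 2.3.3 and numpy 2.4.6.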

Additional observations from a re-analysis of the deposited data

How the results depend on the processing

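Each odds ratio of being called, of the highest signal group, of the 8-mer against sub-threshold regions and of the first intron kept its direction under every alternative run. The first-intron difference lost its call against regions just below the threshold (1.13), and the added 7-mer difference lost its call in the higher-signal peaks (1.42). The 8-mer's differences from near intronic and intergenic peaks, neither of them called in any setting, turned direction. Against intergenic peaks the odds ratio was 0.878 with a 50 bp window and 0.914 at 5000 bp. Against near intronic peaks it was 1.05 both with GC matching and at 1000 bp, and 1.02 with protein-coding genes. Against promoter peaks it stayed above 1 in every setting run and passed at 1000 bp (1.41). With a reciprocal overlap of 50% the odds ratio of recovery was 0.972. Known motifs less frequent in far intronic peaks numbered 1, against 2 with a 50 bp window and 0 with GC matching or regions just below the threshold. Those more frequent numbered 1, and 0 with a 50 bp window, GC matching, regions just below the threshold, 5000 bp or the higher-signal peaks. The odds ratio of Pho was 1.02 against regions just below the threshold, that of GAGA factor was 0.898 there and 0.713 with a 50 bp window, and that of GATA factors was 0.973 in the higher-signal peaks. The rule gave 402 peaks (11.6%) at 5000 bp and 31.2% of peaks at 1000 bp. The share was 20.9% (362 peaks) in the higher-signal peaks and 23.9% with protein-coding genes. The share of genes that were hosts was 8.98% at 1000 bp, 14.1% at 5000 bp and 6.09% in the higher-signal peaks. The causes were not tested, beyond fewer peaks or other sequence by construction. With peaks of a single replicate, the far intronic share was 20.9% to 23.3%, the number of less frequent known motifs 1 in each case and that of more frequent ones 0 to 1. The odds ratio of the 8-mer was then 0.896 to 1.12 against intergenic and 0.777 to 1.11 against near intronic peaks. Recovery in both replicates could not be computed without either replicate. No paired analysis was possible because the series has a single group. Depth limits what can be said of peaks near the threshold, and it is unknown.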
